A study of Mus musculus with 30 samples.

Results

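The 8 genes described here encode the enzymes that methylate lysine 20 of histone H4 and lysine 36 of histone H3. They were taken from a named list, with earlier results of these data known. They are Kmt5a, Kmt5b and Kmt5c for H4K20, and Setd2, Nsd1, Nsd2, Nsd3 and Ash1l for H3K36, out of 20558 protein-coding genes on chromosomes 1 to 19. Each was set against the 2844 replication initiation zones of a single OK-seq library of wild-type E14TG2a cells, an established line of mouse embryonic stem cells kept in LIF with inhibitors of GSK3 and MEK and labelled with 10 µM of the nucleotide analogue EdU for 2 min. OK-seq sequences Okazaki fragments by strand, which gives the direction of replication forks. A breakpoint is the 1 kb bin from which leftward and rightward forks part, and the zone runs from a left edge to a right edge around it. The series also held 29 SCAR-seq samples, of wild-type cells and MCM2-2A mutant clones, which were not analysed here. With 1 library there was no comparison between conditions and no replicate error, and the depth of the library is unknown.

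New histone H4 is deposited behind the fork without methylation at lysine 20, so that H4K20 dimethylation marks old histones for a time. The series followed this mark together with H3K36 trimethylation and, for new histones, H4K5 acetylation. KMT5A places the first methyl group on H4K20 and is destroyed in S phase when bound to the sliding clamp PCNA, while KMT5B and KMT5C extend the mark to di- and trimethylation. SETD2 travels with RNA polymerase II and trimethylates H3K36 in transcribed gene bodies, and NSD1, NSD2, NSD3 and ASH1L place the lower methylation states. The list describes where forks start around the genes for these enzymes. It holds no expression and none of the marks themselves.

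The RefSeq promoter table (GRCm38.p6, the same build as mm10) held 4 of the 8 genes, each on the plus strand, and from these starts the position of transcription against the zones was measured. It held none of Nsd1, Nsd2, Nsd3 and Ash1l. Each window runs from 250 bases before a start to 50 bases after it, and the 4 windows below show one start inside a zone, one just outside a zone, one at an intermediate distance and one far from any zone. Capitals mark the CCAAT box, read on both strands as CCAAT or ATTGG.
Kmt5a, chr5:124439680-124439979, plus strand: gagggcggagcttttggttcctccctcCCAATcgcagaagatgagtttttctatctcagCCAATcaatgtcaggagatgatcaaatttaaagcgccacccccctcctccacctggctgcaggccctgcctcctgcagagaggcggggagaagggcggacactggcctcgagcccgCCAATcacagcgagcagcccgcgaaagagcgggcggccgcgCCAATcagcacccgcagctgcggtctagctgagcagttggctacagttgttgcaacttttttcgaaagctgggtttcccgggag
Kmt5b, chr19:3767171-3767470, plus strand: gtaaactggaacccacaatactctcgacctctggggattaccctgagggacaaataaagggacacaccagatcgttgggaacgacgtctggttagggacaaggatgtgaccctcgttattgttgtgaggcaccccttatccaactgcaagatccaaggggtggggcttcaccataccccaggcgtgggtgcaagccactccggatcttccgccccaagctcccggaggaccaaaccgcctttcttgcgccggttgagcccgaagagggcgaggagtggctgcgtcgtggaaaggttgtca
Setd2, chr9:110532347-110532646, plus strand: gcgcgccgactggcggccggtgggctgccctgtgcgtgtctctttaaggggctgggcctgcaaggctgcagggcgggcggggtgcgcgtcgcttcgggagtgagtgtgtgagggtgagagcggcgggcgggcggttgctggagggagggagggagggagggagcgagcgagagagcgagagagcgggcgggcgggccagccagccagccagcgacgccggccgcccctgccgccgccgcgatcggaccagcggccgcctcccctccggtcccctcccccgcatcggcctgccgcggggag
Kmt5c, chr7:4739877-4740176, plus strand: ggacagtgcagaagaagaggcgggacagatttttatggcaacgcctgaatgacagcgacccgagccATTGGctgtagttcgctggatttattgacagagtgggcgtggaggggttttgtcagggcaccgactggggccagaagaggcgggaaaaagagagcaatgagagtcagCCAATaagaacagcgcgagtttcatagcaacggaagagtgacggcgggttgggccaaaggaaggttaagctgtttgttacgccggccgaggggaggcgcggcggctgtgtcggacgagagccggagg
The printed Kmt5a window, of the first of 3 listed starts, held 4 CCAAT matches, and 1.26% of the 20085 windows of protein-coding genes held 4 or more. The windows of its other starts held 1 and 2 matches. The Kmt5c window held 2 matches, and 12.8% of all windows held 2 or more. The windows of Kmt5b and Setd2 held none, and 38.1% of all windows held at least 1. Setd2 had 7 matches to the GC box (GGGCGG, both strands, overlaps counted), and 0.926% of all windows held 7 or more. The printed Kmt5a window had 3 matches, and 15.1% of all windows held 3 or more. That of Kmt5b had 1 match and that of Kmt5c none, and 47.0% of all windows held at least 1. In the Setd2 window 77.3% of bases were G or C, against a median of 57.0% over all windows. A match describes letters in these windows and not a bound site.

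An end of 4 of the 8 genes lay inside an initiation zone (50.0%, exact binomial 95% interval 15.7 to 84.3%), against 32.4% of all protein-coding genes. The 4 genes were Kmt5a, Kmt5b, Nsd1 and Nsd2, and the remaining 4, Kmt5c, Setd2, Nsd3 and Ash1l, had no base in a zone. The count within 20 kb of a zone was again 4, against 38.5% of all genes. The interval covers counting error only and, with 8 genes, is wide. Like the later binomial intervals, it treats the 8 as independent draws, though they are a chosen list that includes paralogues. Placed by its midpoint, 1 of the 8 genes lay inside a zone (12.5%), against 22.5% of all genes, and 2 of the 8 lay within 20 kb, against 29.9%, so the direction against all genes turned with the point measured. With only zones of at least the median width, 2 of the 8 genes were inside, against 20.1% of all genes. In length, 7 of the 8 genes exceeded the median gene, with a median of 81.7 kb for the 8 and 17.6 kb for all genes. All 8 had more protein-coding neighbours within 250 kb than the median gene, with medians of 18 for the 8 and 9 for all genes. The part of length and gene density in the count was not tested.

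**Figure D1:**
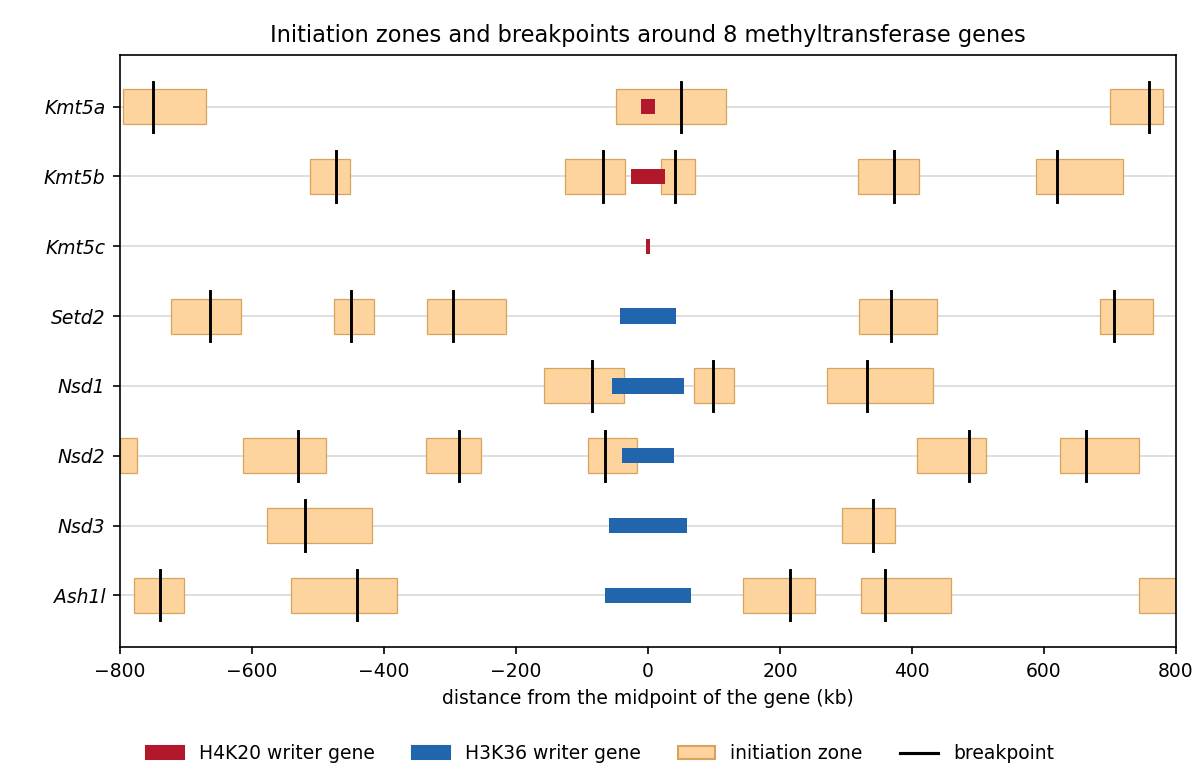
Map of the 8 genes, one per row, with distance from the midpoint of the gene on the x axis (kb). Coloured bars are gene bodies (red for H4K20, blue for H3K36), orange boxes are initiation zones and black lines breakpoints of the wild-type OK-seq library; Kmt5a, Kmt5b, Nsd1 and Nsd2 reach into zones, and no zone lies in the window around Kmt5c.

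Distance to the nearest breakpoint spread the family over a wide range. Measured from the nearer gene end to the middle of the bin, it was 15.2 kb for Kmt5b, 26.2 kb for Nsd2, 30.3 kb for Nsd1 and 39.2 kb for Kmt5a. A step of 111.9 kb separated these 4 from Ash1l at 151.1 kb, which was followed by Setd2 at 253.0 kb, Nsd3 at 281.8 kb and Kmt5c at 1123 kb. The smallest step between neighbours in this order, 4.11 kb between Nsd2 and Nsd1, exceeded the bin of 1 kb; how far a breakpoint would move in a second library is not known. The median of the 8 was 95.2 kb, against 129.1 kb for all protein-coding genes, whose quartiles were 38.4 and 302.7 kb. With only the zones of at least the median width, the order of the medians turned, with 378 kb for the 8 and 323 kb for all genes. Kmt5b, at the 11.3rd percentile of all genes, and Kmt5c, at the 97.4th, are paralogues with a shared activity and were the nearest and the farthest of the 8. No gene body of the family held a breakpoint (0 of 8, exact binomial 95% upper bound 36.9%), as against 4.02% of all genes.

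**Figure D2:**
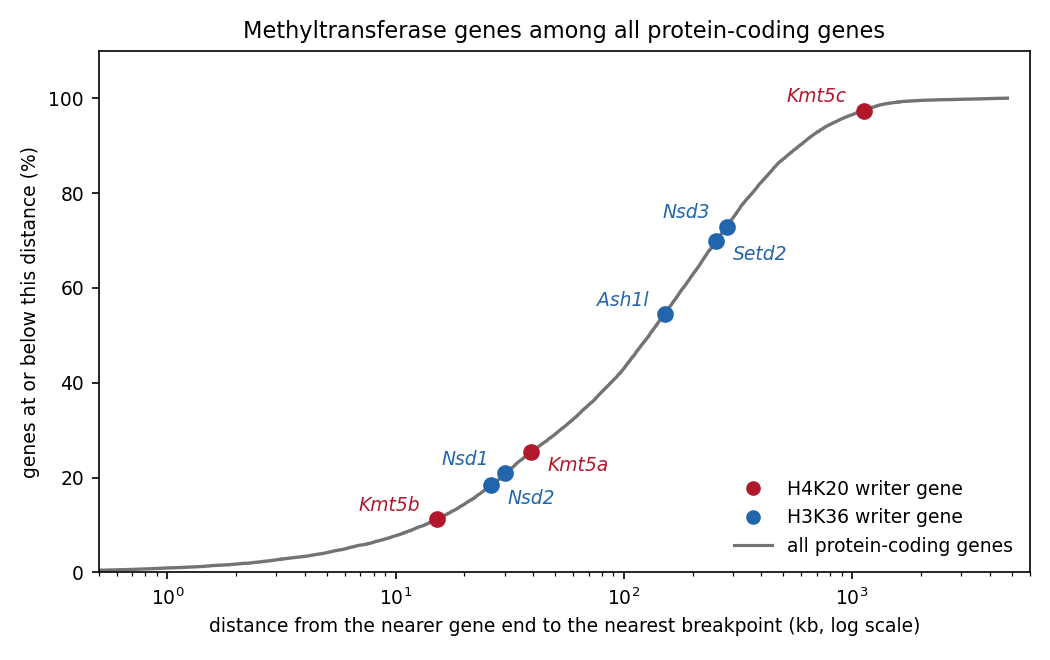
Distance from the nearer gene end to the nearest breakpoint (x axis, kb, log scale) against the share of protein-coding genes at or below that distance (y axis, percent). The points are the 8 methyltransferase genes on the grey curve of all 20558 genes; 4 lie between 15.2 and 39.2 kb, and Kmt5c lies at 1123 kb.

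Among the H4K20 enzymes, Kmt5a was the only one of the 8 that lay wholly inside a zone, as did 18.7% of all protein-coding genes. The gene (chromosome 5, 124439930 to 124462311, 22.4 kb) sat on the left arm of a zone from 124403001 to 124569000. That zone was 165 kb wide, at the 92.4th percentile of all zones, with a left arm of 98 kb and a right arm of 67 kb. The end of Kmt5a nearer to the breakpoint was its 3′ end, 39.2 kb to the left of it, or 40.0% of the way along the arm. Its 3 listed starts lay 61.6, 56.0 and 54.8 kb from the breakpoint. Transcription of Kmt5a thus ran toward the breakpoint, opposite to leftward forks that leave it. The zone held an end of 6 further protein-coding genes. The 3 placed most like Kmt5a, by signed distance to the breakpoint, were Rilpl2 at -23.3 kb (a negative value is left of the breakpoint), Rilpl1, whose body held the breakpoint, and Snrnp35, a component of the minor spliceosome, at -7.92 kb.

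Kmt5b lay between a pair of close breakpoints. The gene (chromosome 19, 3767362 to 3818303, 50.9 kb) had one breakpoint 42.9 kb to the left of its left end and another 15.2 kb to the right of its right end, 109.0 kb apart. Only the last 5.30 kb, or 10.4%, of the gene body reached into a zone, the right one from 3813001 to 3864000. This zone was 50 kb wide, at the 1.20th percentile of all zones, where the narrowest listed zone had 36 kb. The left zone, 90 kb wide, ended 9.36 kb before the gene. The 2 starts of Kmt5b, 9.42 and 9.89 kb beyond that edge, were therefore outside both zones. The start was nearer to the left breakpoint and the 3′ end to the right one, so that rightward forks from the left breakpoint would run with transcription and leftward forks from the right breakpoint against it. Kmt5b was the single protein-coding gene lying wholly between the 2 breakpoints. Chka, which encodes choline kinase alpha, was the other gene with an end in the right zone, 18.1 kb right of its breakpoint.

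In both Kmt5a and Kmt5b, the end nearer to the nearest breakpoint was the 3′ end (start nearer in 0 of 2 genes). Of the 5300 protein-coding genes with a strand and an end inside a zone, 59.1% had the start nearer. With 2 genes, this is a description of each gene only.

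Kmt5c, the paralogue of Kmt5b, was a short gene in gene-rich surroundings and lay far from any zone. The gene (chromosome 7, 4740092 to 4747514, 7.42 kb) was 1030 kb from the nearest zone edge, at the 97.3rd percentile of protein-coding genes. Its flanking breakpoints were 1123 kb to the left and 1489 kb to the right, an interval of 2619 kb that ranked as the 90th longest of 2825. No breakpoint lay within 1000 kb of the gene. Kmt5c had 28 protein-coding neighbours within 250 kb, at the 94.8th percentile, the most of the 8 genes. Of the 604 protein-coding genes 1 Mb or more from a zone (2.94% of all), 77, Kmt5c included, had at least as many neighbours. The 604 also include other genes of the same interval, such as Nat14 at 1209 kb and Il11 at 1062 kb. Genes this close share neighbours, so the 77 are not separate cases. The median of the 604 was 8 neighbours, against 9 for all genes. The whole interval held 80 protein-coding genes, or 30.5 per Mb. Among the 218 intervals of 2 Mb or more, the median was 2.99 genes per Mb, and 3 held more genes per Mb than the interval of Kmt5c. The nearest zone, from 3581001 to 3710000, lay on the left; of its genes, Rps9, Tsen34 and Mboat7 came closest to Kmt5c in position, at 86.5, 75.6 and 60.3 kb right of the breakpoint.

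**Figure D3:**
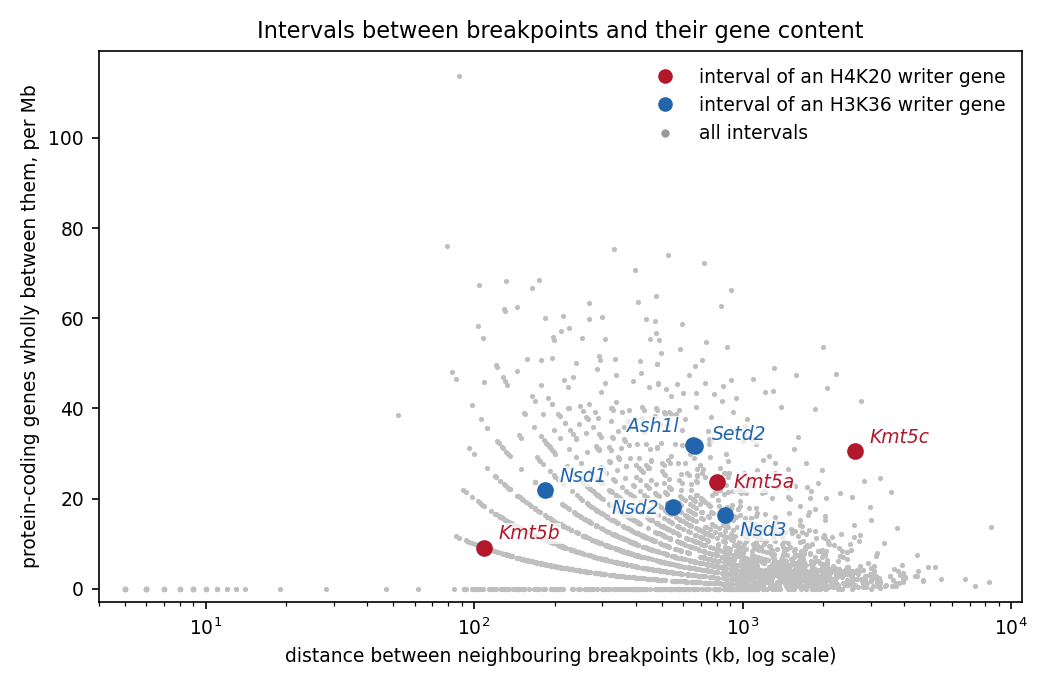
Each grey point is 1 of 2825 intervals between neighbouring breakpoints, with its length (x axis, kb, log scale) and the protein-coding genes wholly inside it per Mb (y axis); coloured points are the intervals that hold the 8 genes. The interval of Kmt5c combines 2619 kb with 30.5 genes per Mb, and that of Kmt5b spans 109.0 kb.

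Among the H3K36 enzymes, Setd2, the gene of the trimethylating enzyme, was outside every zone. The gene (chromosome 9, 110532500 to 110618633, 86.1 kb) was 172.5 kb from the edge of the zone on its left and 277.4 kb from that on its right. It lay near the middle of its interval, with its midpoint at 44.6% of the 664.0 kb between the flanking breakpoints. Its start was the end nearer to a breakpoint, at 253.1 kb from it. The surroundings were not poor in breakpoints, with 5 within 1000 kb, as many as around Kmt5b and at the 91.3rd percentile of all genes. Scap, Elp6 and Cspg5 had an end in the left zone. Of these, Scap, which encodes the escort protein of the sterol regulatory factor SREBP, came closest to Setd2 in position. It lay 53.8 kb right of the breakpoint, against 253.0 kb for the nearer end of Setd2.

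Ash1l and Nsd3 were the other H3K36 writers without a base in a zone. Ash1l (chromosome 3, 88950414 to 89079375) was the longest gene of the family, at 129.0 kb, and ended 79.6 kb before the nearest zone, which held an end of 12 protein-coding genes. Of these 12, Hcn3, a pacemaker channel gene, and the kinase gene Clk2 came closest to Ash1l in position, followed by the predicted gene Gm45927. Hcn3 and Clk2 lay at -70.2 and -53.4 kb from the breakpoint. Genes outside the zone, some of them nearer to Ash1l, were not ranked. With 7 breakpoints within 1000 kb, Ash1l and Nsd2 shared the highest number in the family, at the 99.1st percentile of all genes. Nsd3 (chromosome 8, 25601601 to 25719667) had 2 breakpoints within 1000 kb, and its nearest zone began 234.3 kb to its right, with an end of Hgsnat, Pomk and Fnta among its 4 genes.

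The 3 NSD genes are paralogues that kept an FGF receptor gene as a neighbour, and a breakpoint separated receptor and methyltransferase in 2 of the 3 blocks. These blocks were singled out after their values were seen. How often other gaps of such size between genes hold a breakpoint was not measured, so the 2 of 3 describes these blocks only. Between Fgfr4 and Nsd1, 41.0 kb apart on chromosome 13, the breakpoint lay 10.7 kb from Fgfr4 and 30.3 kb from Nsd1. Between Fgfr3 and Nsd2, 83.6 kb apart on chromosome 5, it lay 57.4 kb from Fgfr3 and 26.2 kb from Nsd2. Between Fgfr1 and Nsd3, 25.9 kb apart on chromosome 8, there was none, and this gap was the shortest of the 3. The distance from the breakpoint to the NSD gene was thus similar in the Nsd1 and Nsd2 blocks, while the receptor genes differed: all of Fgfr4 lay inside the zone, and Fgfr3 was 31.9 kb outside it. Letm1, a mitochondrial inner membrane protein gene that stands between Fgfr3 and Nsd2, had an end 11.8 kb from the breakpoint. Its paralogue Letm2 stood 336.5 kb from a zone, between Fgfr1 and Nsd3. The TACC genes of the blocks were placed the other way round. Tacc1, of the Nsd3 block, had 85.8% of its body in a zone and an end 13.1 kb from a breakpoint. Tacc3, of the Nsd2 block, was 52.1 kb outside a zone. The zone of Tacc1 ended 359.6 kb before Nsd3, and Tacc1 stood farther from Nsd3 than Tacc3 did from Nsd2.

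**Figure D4:**
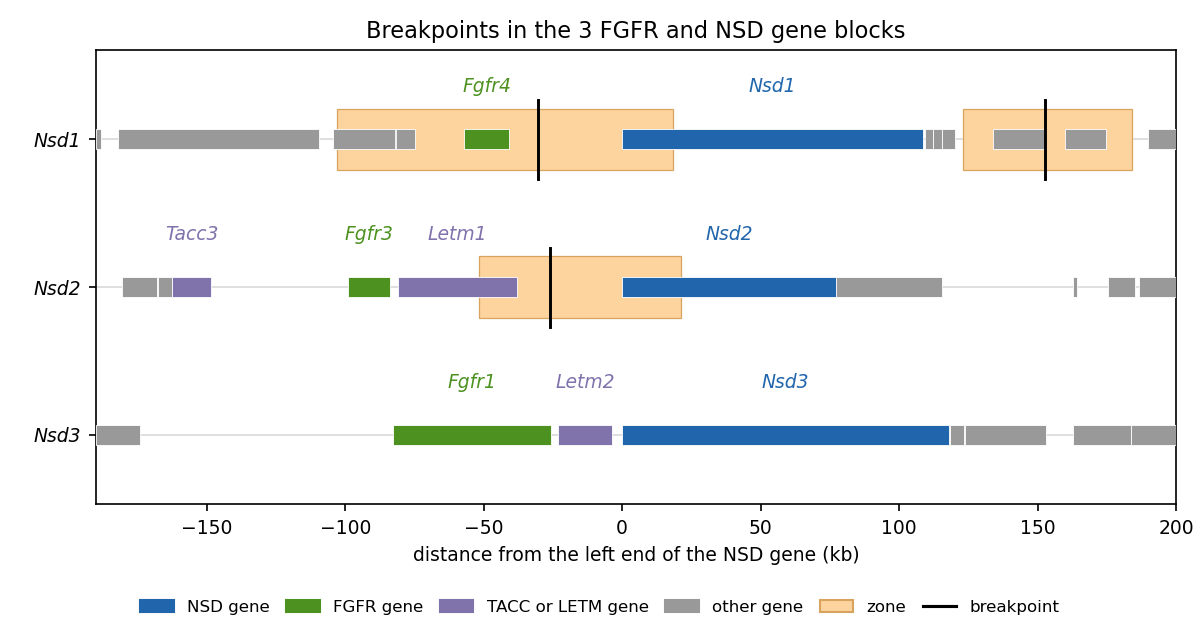
The 3 blocks of FGFR and NSD genes, aligned at the left end of the NSD gene (x axis, kb), with gene bodies as bars, zones as orange boxes and breakpoints as black lines. A breakpoint lies 30.3 kb left of Nsd1 and 26.2 kb left of Nsd2, and the stretch shown around Nsd3 holds neither zone nor breakpoint.

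Nsd1 was flanked on both sides, as Kmt5b was. The gene (chromosome 13, 55209782 to 55318325, 108.5 kb) lay between breakpoints 30.3 kb to its left and 44.2 kb to its right, which were 183.0 kb apart, so that it filled 59.3% of the interval. Its left 18.2 kb, or 16.8% of its body, reached into the left zone (55107001 to 55228000, 120 kb wide). The right zone, 60 kb wide and at the 5.17th percentile, began 14.7 kb after the gene. Fgfr4, Zfp346 and Gm46415 were the other protein-coding genes with an end in the left zone. Genes between breakpoints less than 200 kb apart made up 2 of the 8, Kmt5b and Nsd1, against 3.83% of all protein-coding genes. The limit of 200 kb was set after the values were seen. The exact binomial 95% interval of the 2 in 8 ran from 3.19 to 65.1% and does not allow for that choice.

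Nsd2 had a breakpoint close to it on its left side only. The gene (chromosome 5, 33820676 to 33897966, 77.3 kb) began 26.2 kb right of a breakpoint, and the next one followed 447.5 kb after its right end. Its left 21.3 kb, or 27.6% of its body, lay in a zone from 33769001 to 33842000 that was 72 kb wide, with a left arm of 25 kb and a right arm of 47 kb. The predicted gene Gm52782 overlaps Nsd2 and was placed like it, at 26.4 kb right of the breakpoint, and Letm1 was the other gene in the zone.

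The 4 zones that the family reached into ranged in width from 50 kb (Kmt5b) and 72 kb (Nsd2) to 120 kb (Nsd1) and 165 kb (Kmt5a), against a median of 112 kb and quartiles of 82 and 138 kb for all zones. Zone cover of the genes and their surroundings, 250 kb on either side, also varied. It was 35.2% around Nsd1, 31.8% around Kmt5a, 25.8% around Kmt5b and 18.8% around Nsd2. Ash1l followed with 17.3%, Setd2 with 13.2%, Nsd3 with 2.53% and Kmt5c with 0%. The median of the 8 was 18.0%, and that of all genes 20.2%.

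Most genes for the erasers, readers and partners of these marks had an end inside a zone. Of 37 genes on chromosomes 1 to 19 in the lists of erasers, readers and cofactors, 24 (64.9%) did, against 32.4% of all protein-coding genes. With the H4K5 acetyltransferases and further SET-domain genes added, it was 29 of 49 (59.2%). These shares rest on gene ends alone. For these lists, midpoints, wider zones, gene length and gene density were not examined. Phf8, Msl3 and Rbbp7 were not analysed, and Morf4l1 stood in 2 of the 5 lists, which were chosen with earlier results of these data known. Erasers had 8 of 10 genes inside a zone and a median distance to the breakpoint of 30.1 kb. The H3K36 demethylase genes Kdm4c, Kdm2a and Kdm4a were nearest, at 3.997, 13.8 and 17.4 kb, and Kdm8 was farthest, 237.3 kb from a zone. Readers had 12 of 21 inside and a median of 48.9 kb. The mismatch repair gene Msh6, whose product binds H3K36me3, had an end 2.55 kb from a breakpoint, Bard1, the partner of BRCA1 that reads unmethylated H4K20, 10.4 kb and Phf20 13.2 kb, and Phf20l1 was 578.5 kb from a zone. Trp53bp1 and Orc1, whose products bind H4K20me2, were outside zones, at 61.7 and 145.7 kb. These genes were picked once their values were known and do not stand for all listed readers of H4K20 methylation. L3mbtl1 had an end inside a zone, 25.7 kb from a breakpoint, and L3mbtl3 was 534.0 kb from a zone.

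Cofactors had 5 of 7 genes inside a zone and a median distance to the breakpoint of 23.7 kb. Iws1 and Supt6, whose products act with SETD2 on the polymerase, lay 18.2 and 19.3 kb from a breakpoint by their nearer end, and Pcna 18.8 kb. Dtl, which encodes the ubiquitin ligase subunit that recognises KMT5A on PCNA, was 48.5 kb from a zone, and Hnrnpl was the farthest at 139.7 kb. Of the H4K5 acetyltransferase genes, 3 of 6 were inside, with a median of 43.2 kb. Kat8 held a breakpoint in its body, 1.34 kb from its end, Kat7 and Hat1 had ends at 17.3 and 20.8 kb, and Kat5 was 88.0 kb from a zone. Further SET-domain genes had a median of 123.3 kb and 2 of 6 inside. These were Prdm9, whose body also held a breakpoint, at 8.87 kb and Smyd5 at 34.5 kb, while Smyd2 was farthest, 127.5 kb from a zone. Of the 49 related genes, 2 held a breakpoint in the body, against 4.02% of all protein-coding genes. The writers had 4 of 8 inside and a median of 95.2 kb. Their share was below those of erasers, readers and cofactors, equal to that of the acetyltransferases and above that of the further SET-domain genes, and their median was shorter than that of the further SET-domain genes and longer than those of the other 4 lists. The differences between these small lists were not tested.

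**Figure D5:**
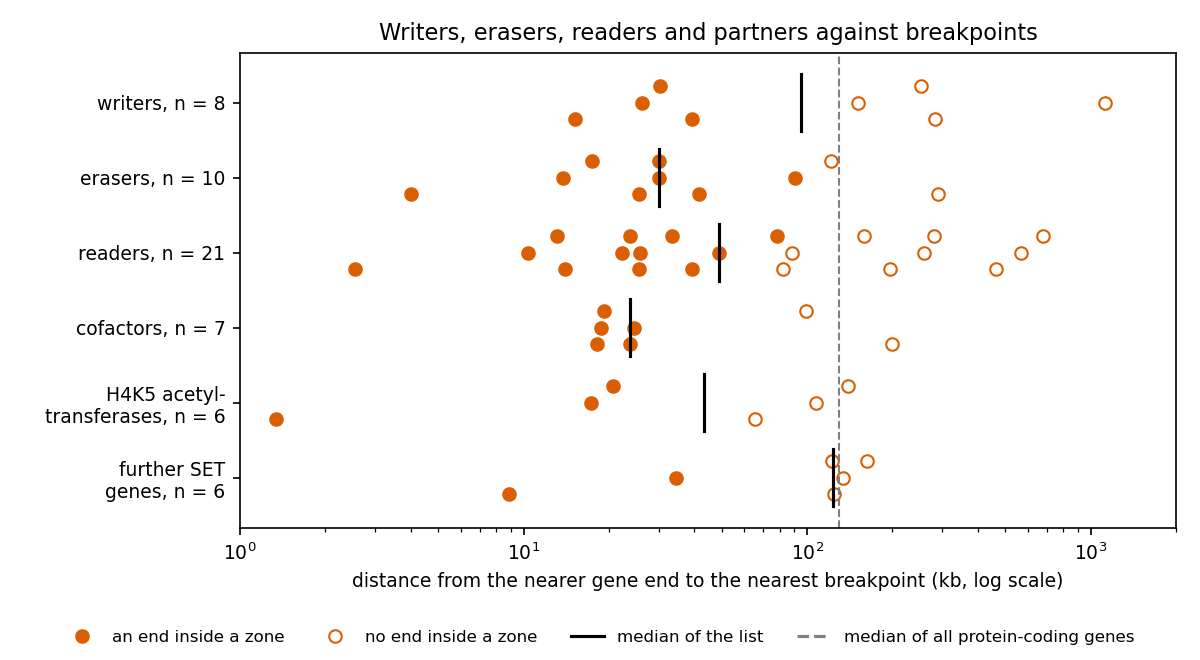
Distance from the nearer gene end to the nearest breakpoint (x axis, kb, log scale) for the 8 writers and 5 lists of related genes (rows). Filled points have an end inside a zone and open points have none; the black line is the median of a list (95.2 kb for writers, 30.1 kb for erasers) and the dashed line that of all protein-coding genes (129.1 kb).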

How the data were processed

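The deposited list of 2844 initiation zones came from 1 wild-type OK-seq library; the 29 other samples in 16 groups were not analysed here. The submitters' processing notes name Picard 2.8.2, SAMtools, BWA 0.7.13, Bowtie, Trim Galore 0.4.2 and bcl2fastq, with build mm10; the role of each tool and the way zones were called are not stated there. The deposited values are positions and distances in bp (another kind of unit, with no counts or signal), per the file headers. No arm exceeded 100 kb, so long zones may be shortened. Genes came from the RefSeq table of GRCm38.p6; 333 genes were left out as lying on scaffolds, recognised by a start that breaks the table's sorted order on a chromosome or that falls in its first 3 Mb. Distances ran from either gene end to the zone edge or to the middle of the breakpoint bin. Strand came from the RefSeq promoter table, which held 16457 of 20558 protein-coding genes. Exon structure was not used.

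The members, lists and alternatives were chosen with earlier results of these data known. All 8 members are described. Neighbours were named only among genes with an end in the zone nearest to the member, by the likeness of their signed distance to its breakpoint (up to 3 a gene). Genes of each related list were named by nearness to a breakpoint among those with an end inside a zone, with the gene farthest from a zone. Trp53bp1, Orc1, L3mbtl1, L3mbtl3, Dtl, Kdm2b, Psip1 and the neighbours of the NSD genes were added once their values were known. Percentiles are shares of all protein-coding genes at or below a value. No test was run, since 1 library gives no replicates. The distance code was tested on simulated data. Python 3.11.15, pandas 2.3.3, numpy 2.4.6, scipy 1.17.1 and matplotlib 3.10.9 were used.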

Additional observations from a re-analysis of the deposited data

How the results depend on the processing

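The count of 4 genes with an end inside a zone stayed at 4 with zones less than 10 kb apart merged, without zones that have an arm at the 100 kb limit, with any base of the gene body and with a breakpoint within 50 kb of an end; the count within 20 kb stayed at 4 in the first 3 of these and at limits of 5 and 50 kb. With the gene midpoint they were 1 and 2. With the transcription start, known for 4 genes, they were 1 (Kmt5a) and 2 of 4. With only the wider zones kept (median width or more), both were 2, because the zones of Kmt5b and Nsd2 are narrower. The share of all protein-coding genes inside a zone was 32.4% with close zones merged and 32.9% with any base of the gene body. It was 22.5% with midpoints, 28.1% with starts, 20.1% with wide zones and 27.9% without zones at the arm limit. The share with a breakpoint within 50 kb of an end is not given here. The members' median distance to a breakpoint became 150 kb with midpoints, against 152 kb for all genes, 157 kb with starts, against 149 kb, and 378 kb with wide zones, against 323 kb. The share of all protein-coding genes within 20 kb of a zone became 29.9% with midpoints, 33.9% with starts, 23.4% with wide zones, 33.3% without zones at the arm limit, 34.2% and 45.4% at limits of 5 and 50 kb, and 30.4% for genes of all kinds. This share was 38.5% with close zones merged and 38.9% with any base of the gene body. No gene body of the 8 held a breakpoint under any of the 3 zone alternatives, for which the share of all genes is not given here. Of the genes between close breakpoints, chosen after the data were seen, 1 was left under 150 kb (1.64% of all genes) and 2 under 300 kb (9.71%). With wide zones 0 were left, and the share of all genes is not given here.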

Other observations

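The long interval around Kmt5c on chromosome 7 held genes of several unrelated kinds. Of its 80 protein-coding genes, 12 were vomeronasal receptor genes, 8 were Zfp zinc finger genes, 5 were Pir or Lilr immune receptor genes and 2 were the troponin genes Tnnt1 and Tnni3. An end of 11 genes lay in the flanking zones, and 53 genes were 500 kb or more from a zone. Those farthest from a zone were Nat14, at 1209 kb, Zfp628, at 1205 kb, and Ssc5d, at 1191 kb. The 3 intervals of 2 Mb or more with more genes per Mb were one of 2226 kb on chromosome 11 with 106 genes, and 2 on chromosome 2, of 2764 kb with 115 genes and of 2068 kb with 92 genes.

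Among the 49 related genes, 4 (8.16%) also lay between breakpoints less than 200 kb apart, as Kmt5b and Nsd1 did, against 3.83% of all protein-coding genes. Supt6 lay between breakpoints 122.0 kb apart, Psip1, whose product LEDGF reads H3K36 methylation, 125.0 kb, Msh6 128.0 kb and the H3K36 demethylase gene Kdm2b 182.0 kb. They were chosen after their values were seen.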
